A study of Mus musculus with 9 samples.

Results

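The genes described here are 41 that act in mitosis and at the kinetochore, measured in granulocyte-macrophage progenitors (GMPs) that differ in Dicer1, the gene of the ribonuclease that cuts microRNA precursors into microRNAs. They were chosen by name, with earlier results of these data known. Of the 41, 40 had a probe set that the array annotation assigns to that gene alone, out of 18193 genes with such a probe set, and Ccnb1, the gene of cyclin B1, was not analysed here. The probe set with the highest mean over the arrays stood for each gene. A total of 39 passed the filter on dim genes, a mean signal of 8.49, and Kif15, a spindle kinesin, did not, with signals of 0.897 to 11.3 on null arrays, 4.14 to 12.4 on heterozygous arrays and 5.86 to 10.1 on wild-type arrays.

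The study hybridised RNA of sorted EYFP-positive GMPs to 9 Affymetrix arrays, with 3 arrays labelled Dicer null, 3 Dicer heterozygous and 3 Dicer wild type. All donors carried a Cre recombinase driven by Cebpa, a gene that is active from early myeloid stages onwards, and an Eyfp reporter in the Rosa26 locus that Cre switches on. By the design text, the null cells came from donors with 2 floxed Dicer1 alleles, the heterozygous cells had 1 deleted and 1 wild-type allele, and the wild-type controls share the Cre and the reporter. Donor cells were taken from fetal livers on embryonic day 13.5, given to C57BL/6 recipients that were 6 to 8 weeks old and had received 8.5 Gy, and the GMPs were sorted from marrow 6 to 10 weeks later. One liver usually served more than 1 recipient, and the labels do not say which samples come from separate livers. The p-values therefore measure only the spread between these samples, which may in part be technical.

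Mitotic genes are transcribed in waves, so that most of their RNA is found in cells between the end of DNA replication and division. Cyclin-dependent kinase 1 with its cyclins, and the Polo and Aurora kinases, drive entry into mitosis, the kinetochore builds on centromeric chromatin and ties each chromosome to spindle microtubules, and the spindle checkpoint holds the anaphase-promoting complex back until all chromosomes are attached. Anaphase then opens with the destruction of securin and cyclin B, and a ring of actin and myosin under the control of Ect2 and anillin pinches the cell apart. GMPs are dividing progenitors, and in such cells these genes are known to be active.

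Dicer1 itself had a mean signal of 105 ± 9.46 on null arrays, 185 ± 16.1 on heterozygous arrays and 232 ± 11.1 on wild-type arrays (SD, n = 3 each), and its fall in null against wild type was -1.07 in log2 units (adjusted p = 1.88e-05 from limma, SE 0.11). Wild-type replicate 2 stood apart: its Xist signal was 2610 and its Eif2s3y signal 1.13, against 16.4 to 30.2 and 622 to 859 on the other 8 arrays, although the labels call every sample female. Xist RNA coats the silenced X of female cells, and Eif2s3y is a gene of the Y. By these 2 genes, wild-type replicate 2 reads as female and the other 8 arrays as male. Sex thus differs within the wild-type group.

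All 10 genes listed as markers of GMPs were above the filter signal, and their summed signal was 25285 to 27306 on null, 25049 to 29135 on heterozygous and 24483 to 27300 on wild-type arrays. Most of that sum was Mpo, Ctsg and Prtn3, with null means of 7845, 8903 and 4205, so it says little about the dimmer markers. Among the 10 genes, Fcgr3 was called higher in null against wild type (0.37, adjusted p = 0.00959), and Csf3r was called lower (-0.38, adjusted p = 0.0182). Csf3r was also lower in null against heterozygous (-0.40, adjusted p = 0.0144). Single markers of other cells were also called, in both directions. For 8 erythroid genes, 6 of them above the filter, the sums were 319 to 670 on null, 599 to 916 on heterozygous and 307 to 1633 on wild-type arrays. For 5 megakaryocyte genes, 4 of them above it, the sums were 88 to 131, 92.3 to 116 and 109 to 280 in the same groups. In these 2 lists 0 genes were called. For late neutrophil genes, 8 of 9 above the filter and Mmp9 below it, the sums were 2438 to 8812 on null, 2759 to 5047 on heterozygous and 4015 to 7482 on wild-type arrays. These sums were mostly S100a8 and S100a9, which were not called. The granule genes Ltf and Ngp fell in null against wild type, with differences of -2.09 and -2.12 (adjusted p = 8.01e-05 and 0.00109). In heterozygous cells Ltf, Ngp and Lcn2 fell, with -1.97, -1.86 and -1.78 against wild type (adjusted p = 0.000411, 0.0144 and 0.00579), and Lcn2 rose by 2.07 in null against heterozygous (adjusted p = 0.000552). For 6 mast cell, basophil and eosinophil genes, all above the filter, the sums were 4453 to 6445 on null, 3445 to 3887 on heterozygous and 3587 to 5515 on wild-type arrays. Fcer1a fell compared with wild type, with -2.25 in null and -3.11 in heterozygous cells (adjusted p = 0.000774 and 0.000198). Epx and Prg2 rose in null against wild type by 0.94 and 0.63 (adjusted p = 0.00323 and 0.0274), and Cpa3 and Mcpt8 rose in null against heterozygous by 0.56 and 0.61 (adjusted p = 0.0116 and 0.0352).

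The summed signal of 7 B cell genes was 571 to 680 on null, 1102 to 1231 on heterozygous and 1219 to 1464 on wild-type arrays. Most of it was Ighm, with means of 407 ± 45.7, 927 ± 51 and 1105 ± 121 in the same groups (SD, n = 3 each), which fell by 1.42 in null against wild type (adjusted p = 1.02e-06) and by 1.17 in null against heterozygous (adjusted p = 1.19e-05). Cd79b, Igll1 and Vpreb1 were not called, and Cd79a, Ebf1 and Pax5 were below the filter signal. The 5 monocyte genes, all above it, summed to 2060 to 2614 on null, 1821 to 2274 on heterozygous and 867 to 1858 on wild-type arrays, most of it Ccr2. Cd14 and Ccr2 rose in null against wild type by 1.14 and 0.75 (adjusted p = 0.000251 and 0.0459), and Cd14 fell by 0.90 in heterozygous against wild type (adjusted p = 0.00635). In null against heterozygous Cd14 rose by 2.04 (adjusted p = 4.57e-06). Of 5 T and NK cell genes only Klrd1 was above the filter, and it fell by 0.65 in null against wild type (adjusted p = 0.042). Of 6 stem and multipotent genes, 5 of them above the filter, 1 was called higher in null against wild type. The part of these cells in the results below was not tested.

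In null against wild-type GMPs, the mitotic genes split. Genes of the centromere and kinetochore, Cenpa, Cenpe and Cenpf, fell together with Birc5, Ube2c and Kif2c, whereas Pttg1, Anln, Ect2 and Ndc80 rose. That made 4 members higher and 6 lower of 39 tested, 25.6% called in either direction against 15.7% of all 12347 genes tested (7.60% higher and 8.09% lower). Because members were chosen with earlier results of these data known, the shares called among them do not test mitotic genes as a group. A call is an adjusted p under 0.05 from limma, a linear model fitted over all genes and all 9 arrays with p-values adjusted by the Benjamini-Hochberg method. The members' median log2 difference was -0.04, and that of all genes tested was -0.04 as well. Without wild-type replicate 2, the counts were again 4 higher and 6 lower.

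Between null and heterozygous GMPs, 6 members were higher and 3 lower of 39, 23.1% called against 14.3% of all genes (6.84% higher and 7.49% lower), and the genes that rose were mostly those of cytokinesis (Anln, Ect2, Kif23 and Prc1), with Nusap1 and Ccna2. Cenpa, Birc5 and Kif2c fell. Between heterozygous and wild-type GMPs only Pttg1, which rose, and Cenpf, which fell, were called, 5.13% of the members against 1.39% of all genes, with 0.697% of all genes in each direction. The comparisons with wild type share the wild-type arrays, and those with null share the null arrays, so the 3 lists are not independent. The members' median was 0.04 in null against heterozygous, with -0.03 over all genes, and -0.11 in heterozygous against wild type, with -0.01 over all genes. Where a gene's probe sets were averaged in place of taking the brightest, 2 members were higher and 1 lower in null against heterozygous. Without wild-type replicate 2, the counts were 6 higher and 4 lower in null against heterozygous, the added gene being Cdca8, and 1 higher and 0 lower in heterozygous against wild type. In sorted bulk RNA, fewer cells in mitosis and less mitotic RNA per cell cannot be told apart.

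**Figure D1:**
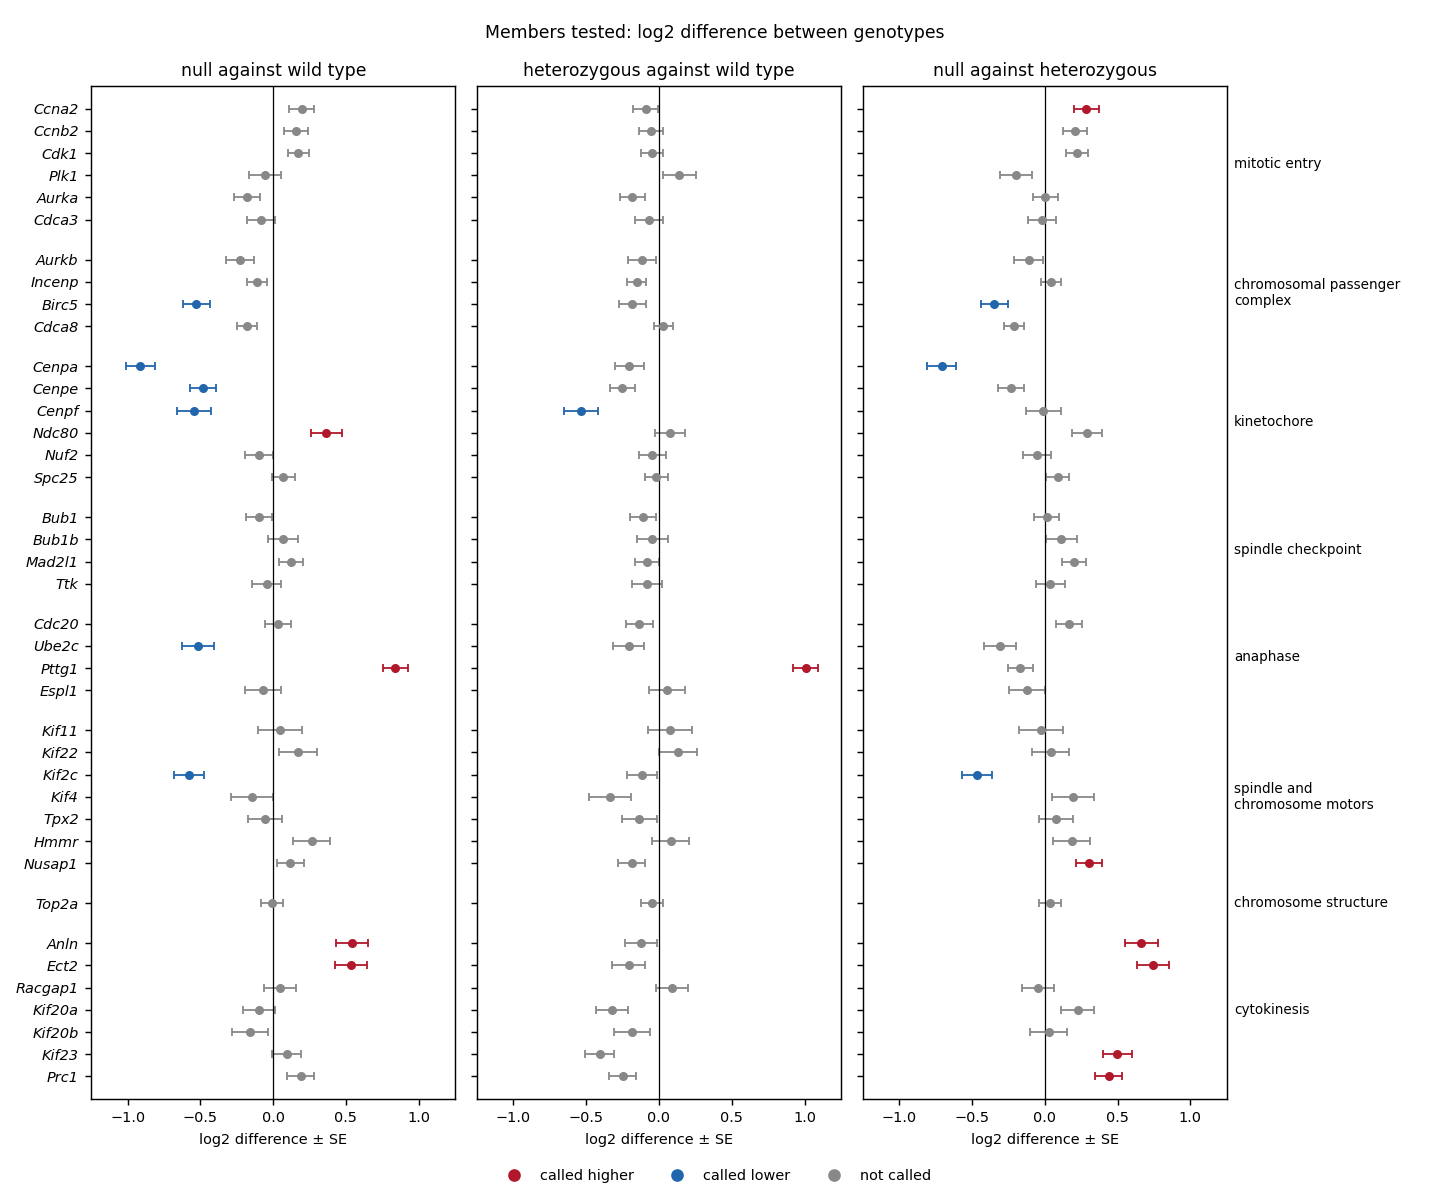
Log2 difference ± SE for the 39 members tested, in blocks by role, in null against wild type, heterozygous against wild type and null against heterozygous (x axis in log2 units, coloured points called at an adjusted p under 0.05). Most points lie near 0; the centromere gene Cenpa is the lowest point on the left (-0.91), Pttg1 the highest on the left and in the middle (0.84 and 1.01), and the cytokinesis genes Anln and Ect2 the highest on the right (0.66 and 0.74).

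Promoters are shown for the member with the largest fall in null against wild type and the 3 with the largest rises, because many mitotic genes are known to be switched by shared short elements. These are CCAAT boxes, read by the factor NF-Y, and the cell cycle genes homology region (CHR), read by the DREAM and MMB complexes. Each stretch runs from 150 bases before to 30 bases after the RefSeq start of the gene on GRCm38.p6, 5′ to 3′ on the gene's strand, and capitals mark CCAAT or its reverse complement ATTGG, and TTTGAA or its reverse complement TTCAAA, the core of the CHR. Cenpa lies at chr5:30666736-30666915, plus strand, Ect2 at chr3:27153849-27154028, minus strand, Anln at chr9:22389177-22389356, minus strand, and Pttg1 at chr11:43425952-43426131, minus strand.
Cenpa: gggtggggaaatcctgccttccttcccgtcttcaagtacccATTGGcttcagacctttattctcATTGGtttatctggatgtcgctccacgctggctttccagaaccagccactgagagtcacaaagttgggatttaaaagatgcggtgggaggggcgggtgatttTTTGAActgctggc
Ect2: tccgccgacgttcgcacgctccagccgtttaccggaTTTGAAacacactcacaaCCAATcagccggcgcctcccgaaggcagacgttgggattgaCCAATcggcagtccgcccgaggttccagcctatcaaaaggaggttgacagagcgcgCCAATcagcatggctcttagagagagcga
Anln: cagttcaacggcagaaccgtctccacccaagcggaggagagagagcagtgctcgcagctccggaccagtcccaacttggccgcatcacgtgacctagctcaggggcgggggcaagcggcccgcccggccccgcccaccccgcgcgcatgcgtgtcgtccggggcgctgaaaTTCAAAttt
Pttg1: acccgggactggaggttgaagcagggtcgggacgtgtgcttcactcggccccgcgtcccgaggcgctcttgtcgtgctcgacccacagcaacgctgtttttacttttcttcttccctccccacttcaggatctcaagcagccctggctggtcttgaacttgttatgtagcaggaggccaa
The stretch of Cenpa, which fell, and that of Ect2, which rose, both held CCAAT boxes and a CHR core. The stretch of Anln held a CHR core and no CCAAT box, and that of Pttg1 held neither. The same span of the other members called in null against wild type is not printed. Of those that fell, Cenpf and Ube2c held both motifs, Cenpe a CCAAT box alone, Kif2c a CHR core alone and Birc5 neither. Ndc80, which rose, held no complete match in that span.

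Over whole windows of 300 bases, from 250 before to 50 after a start, 36 of the 41 genes were matched in the RefSeq promoter table used here, and the windows of Ccna2, Aurkb, Incenp, Tpx2 and Kif20a were not analysed here. Some genes have more than 1 start, which made 38 windows. A CCAAT box on either strand stood in 73.7% of the members' windows against 37.4% of all 32851 windows of the mouse genome, a CHR core on either strand in 78.9% against 17.9%, and both in 65.8% against 6.95%. Matches to the 2 motifs share bases at most at their ends. Split by the test of null against wild type, a CHR core was found in 3 of 4 members that rose, 4 of 6 that fell and 20 of 24 that were tested, not called and had a window. A CCAAT box was found in 1 of 4, 4 of 6 and 20 of 24. A match describes letters in a window and is not evidence of binding.

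**Figure D2:**
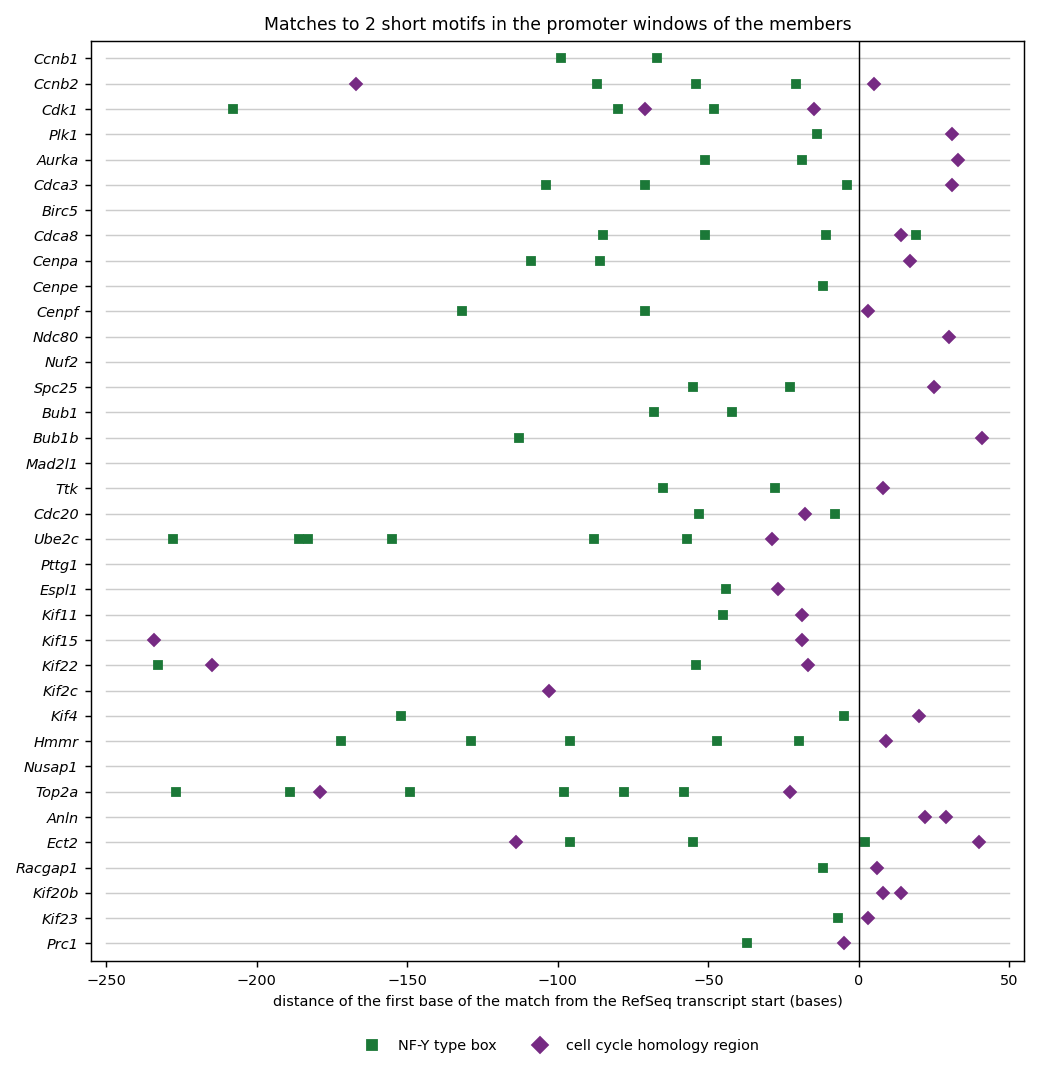
Position of each match to the CCAAT box (squares) and the CHR core (diamonds), both strands, relative to the most upstream RefSeq start of each of 36 members (x axis in bases, 0 is the start). Most members have squares in the 150 bases before the start and a diamond near it; Birc5, Nuf2, Mad2l1, Pttg1 and Nusap1 show no match in this window.

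At the kinetochore, Cenpa encodes the histone H3 variant that marks centromeric chromatin and on which the kinetochore is built. Its signals were 358, 363 and 314 on null arrays, 628, 575 and 512 on heterozygous arrays and 606, 718 and 656 on wild-type arrays. All null values lay below all others. Cenpa fell by 0.91 in null against wild type (log2, SE 0.10, adjusted p = 4.48e-05) to 0.523 of the wild-type mean (345 ± 27.2 against 660.1 ± 56.3, SD, n = 3 each), and by 0.71 in null against heterozygous (adjusted p = 0.000449). On heterozygous arrays the difference from wild type was -0.20 and missed the threshold (adjusted p = 0.415). A dimmer Cenpa probe set had mean signals of 40.4 ± 18.8 on null, 78.6 ± 13.9 on heterozygous and 199.8 ± 52.5 on wild-type arrays. It gave -2.06 in null against wild type, -1.21 in heterozygous against wild type and -0.85 in null against heterozygous (adjusted p over all probe sets = 0.000148, 0.0307 and 0.0422). The dimmest, with mean signals of 15.3 ± 5.52 on null and 13.5 ± 1.02 on wild-type arrays, gave 0.08 in null against wild type (adjusted p = 0.863). With the mean over all Cenpa probe sets, the null against heterozygous difference was -0.50 and missed the threshold (adjusted p = 0.0631).

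Cenpe, a kinesin that carries chromosomes towards the spindle equator from the kinetochore, read 306, 276 and 296 on null, 354, 344 and 339 on heterozygous and 386, 442 and 415 on wild-type arrays. The 3 genotypes did not overlap, with null lowest and wild type highest. Cenpe fell in null against wild type by 0.48 (SE 0.09, adjusted p = 0.00202), and its differences of -0.25 in heterozygous against wild type and -0.23 in null against heterozygous did not pass (adjusted p = 0.22 and 0.0928). Its other probe set gave -0.47 in null against wild type (adjusted p over probe sets = 0.0145).

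Cenpf is a large coiled-coil protein of the outer kinetochore. It read 124, 132 and 147 on null arrays, 137, 147 and 122 on heterozygous arrays and 207, 224 and 175 on wild-type arrays, so that null and heterozygous values overlapped and both lay below wild type. Against wild type it fell by 0.54 in null (SE 0.12, adjusted p = 0.00648) and by 0.53 in heterozygous cells (adjusted p = 0.0397). The heterozygous call lay near the threshold, and with 1 array left out the difference was -0.63 to -0.46. The call was lost without heterozygous replicate 1, 2 or 3 (adjusted p = 0.0987, 0.0784 and 0.165) and without wild-type replicate 1 or 2 (adjusted p = 0.134 and 0.129). Leaving out null replicate 2, an array outside the comparison that serves only the estimate of the spread, gave an adjusted p of 0.0529. The call was also lost without the filter, without the intensity trend of the variance prior and with the 6 arrays alone (adjusted p = 0.0707, 0.12 and 0.0528). The 2 dimmer probe sets gave -0.60 and 0.12 in null against wild type (adjusted p over probe sets = 0.0518 and 0.769), and with the mean of all 3 the call was lost in null against wild type (adjusted p = 0.0922) and in heterozygous against wild type (adjusted p = 0.403).

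Ndc80 names the rod-shaped complex that grips microtubules at the kinetochore, and was the kinetochore gene that rose. Its signals were 369, 297 and 310.1 on null, 257, 273 and 259 on heterozygous and 229, 278 and 242 on wild-type arrays. Null arrays lay above all others, but the nearest wild-type value was close to them. The rise of 0.37 in null against wild type (SE 0.11, adjusted p = 0.0306) did not hold without replicate 1 or 3 of the null group, or replicate 1 or 3 of the wild type (adjusted p = 0.126, 0.0549, 0.106 and 0.0889), nor with the 6 arrays of the comparison alone or without the intensity trend (adjusted p = 0.0576 and 0.0716). Nuf2 and Spc25, partners of Ndc80 in that complex, were not called, with -0.10 and 0.07 in null against wild type. In all, 1 kinetochore gene rose and 3 fell of 6 in null against wild type (16.7% and 50%), against 7.60% and 8.09% of all genes. These 6 are members chosen with earlier results of these data known, so the shares do not test kinetochore genes as a group.

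The chromosomal passenger complex, which corrects wrong attachments and later marks the division plane, consists of the kinase Aurkb, the scaffold Incenp, and Birc5 and Cdca8, the genes of survivin and borealin. Birc5 read 535, 506 and 505 on null, 639, 640.4 and 696 on heterozygous and 685, 857 and 715 on wild-type arrays. Null arrays lay below all others, and heterozygous and wild-type values overlapped. Birc5 fell by 0.53 in null against wild type (SE 0.09, adjusted p = 0.00156) and by 0.35 in null against heterozygous (adjusted p = 0.0211). This second call was lost without replicate 2 or 3 of the null group, or replicate 2 or 3 of the heterozygous group (adjusted p = 0.0555, 0.0678, 0.0516 and 0.0766), and without the intensity trend (adjusted p = 0.0722).

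The other passenger genes were not called in any comparison, although in all 4 the null arrays lay below the wild-type arrays. Such separation in this direction was seen in 19.0% of all genes tested. Aurkb read 255, 228 and 243 on null, 258, 251 and 278 on heterozygous and 313, 263 and 280.4 on wild-type arrays, a difference of -0.23 in null against wild type (SE 0.10, adjusted p = 0.132). Cdca8 was the nearest to the threshold, with -0.18 in null against wild type and -0.21 in null against heterozygous cells (adjusted p = 0.0851 and 0.0501). Incenp gave -0.11 in null against wild type with its brightest probe set (adjusted p = 0.309). A dimmer Incenp probe set, with mean signals of 39.8 ± 3.82 on null and 89 ± 12.7 on wild-type arrays, gave -0.96 (adjusted p over probe sets = 0.0025), so the probe sets of this gene disagree.

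**Figure D3:**
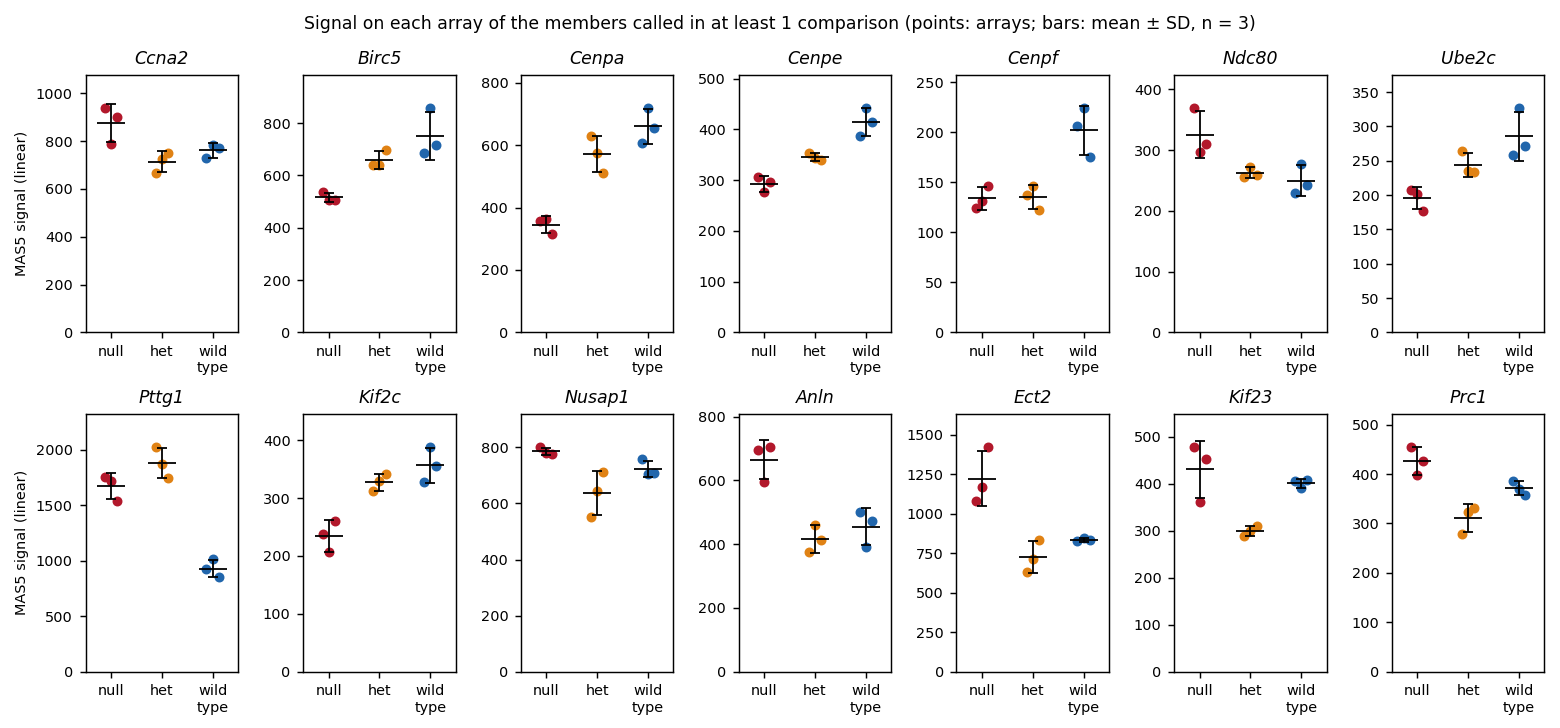
Signal on each array (points, linear MAS5 signal, axes start at 0) with the mean and SD of 3 arrays for the 14 members called in at least 1 comparison, in null (left), heterozygous and wild-type (right) GMPs. Cenpa on null arrays sits at 314 to 363, below every other array, and Pttg1 on null and heterozygous arrays sits at 1537 and above, over wild-type signals of at most 1012.

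At the anaphase step, Ube2c and Pttg1 moved in opposite directions. Pttg1 encodes securin, which holds separase inactive until the anaphase-promoting complex has it destroyed. Its signals were 1754, 1719.9 and 1537 on null, 2020.5, 1873 and 1745 on heterozygous and 924, 1012 and 853 on wild-type arrays. Null and heterozygous values overlapped slightly, and both groups stood clear of wild type. Against wild type, Pttg1 rose by 0.84 in null cells (SE 0.09, adjusted p = 2.66e-05, 1670.1 ± 117 against 929.8 ± 79.5, a ratio of 1.8) and by 1.01 in heterozygous cells (adjusted p = 1.54e-05, a ratio of 2.02). Null against heterozygous gave -0.17 (adjusted p = 0.223), which did not pass.

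A dimmer Pttg1 probe set also rose against wild type, by 0.76 in null and 0.94 in heterozygous cells (adjusted p over probe sets = 0.00196 and 0.00151), and the dimmest gave 0.28 and 0.20 (adjusted p = 0.365 and 0.739). Pttg1 was the 1 member called in heterozygous GMPs whose call held under every alternative tried and with each array left out. Dicer1 itself gave -0.31 in heterozygous against wild type and was not called (adjusted p = 0.217).

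Ube2c, the enzyme that hands ubiquitin to targets of the anaphase-promoting complex, read 208, 202 and 177 on null, 265, 235 and 233 on heterozygous and 258, 327 and 271 on wild-type arrays. Null arrays were below all the others. It fell by 0.52 in null against wild type (SE 0.11, adjusted p = 0.00574), and gave -0.31 in null against heterozygous without passing (adjusted p = 0.079). Cdc20, the activator of the complex, read 2068, 1979 and 2215 on null, 1782, 2006 and 1787 on heterozygous and 1949, 2339.8 and 1857 on wild-type arrays. The groups overlapped, and the difference of 0.03 in null against wild type had a 95% interval of -0.16 to 0.23. Espl1, the gene of separase itself, gave -0.07 and was not called.

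Among the spindle proteins and motors, Kif2c encodes a kinesin that takes microtubules apart at the centromere to free wrong attachments. It read 238, 206 and 261 on null, 312, 329 and 342 on heterozygous and 328, 387 and 355 on wild-type arrays. Null arrays lay below all others. Kif2c fell by 0.58 in null against wild type (SE 0.10, adjusted p = 0.00182) and by 0.46 in null against heterozygous (adjusted p = 0.00828). Its dimmer probe sets gave -0.52 and -0.35 in null against wild type (adjusted p over probe sets = 0.0552 and 0.39), and another was below the filter. With the mean of all its probe sets both calls just missed (adjusted p = 0.0509 and 0.0643).

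Nusap1 binds and bundles spindle microtubules near chromosomes. Its signals were 799.8, 781 and 776 on null arrays, 553, 646 and 712 on heterozygous arrays and 758, 706 and 707 on wild-type arrays. Every null value lay above every heterozygous one. The rise of 0.31 in null against heterozygous (SE 0.09, adjusted p = 0.0369) was lost without null replicate 1, 2 or 3 (adjusted p = 0.0982, 0.0738 and 0.084) and without heterozygous replicate 1 or 2 (adjusted p = 0.147 and 0.0838). It was lost as well without the filter, after quantile normalization, without the intensity trend and with the mean of both probe sets (adjusted p = 0.0527, 0.0508, 0.105 and 0.181). The dimmer probe set gave 0.06 (adjusted p over probe sets = 0.863).

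The bipolar spindle motor Kif11 read 158, 215 and 181 on null, 182, 207 and 174 on heterozygous and 228, 145 and 168 on wild-type arrays. Its difference of 0.05 in null against wild type had a 95% interval of -0.28 to 0.37, and the arrays of each genotype scattered widely. A dimmer Kif11 probe set gave -0.63 (adjusted p over probe sets = 0.0322), so this gene's probe sets disagree as well. The chromosome-arm motors Kif22 and Kif4, the spindle assembly factor Tpx2 and the microtubule-binding protein Hmmr were not called in any comparison. Their differences in null against wild type were 0.17, -0.14, -0.06 and 0.26.

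Cytokinesis genes made up 4 of the 6 rises in null against heterozygous GMPs. These 4 were 57.1% of the 7 cytokinesis genes tested, next to 6.84% of all genes called higher. The 7 are members chosen with earlier results of these data known, so this share does not test cytokinesis genes as a group. Ect2 activates RhoA at the cell equator and so starts the contractile ring. It read 1080.0, 1166 and 1418 on null arrays, 629, 711 and 835 on heterozygous arrays and 825, 847 and 832 on wild-type arrays, with all null values above all others. Ect2 rose by 0.53 in null against wild type (SE 0.11, adjusted p = 0.00505) and by 0.74 in null against heterozygous (SE 0.11, adjusted p = 0.000674). The means were 1222 ± 176 on null, 725 ± 103 on heterozygous and 835 ± 11.3 on wild-type arrays (SD, n = 3 each).

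Anln encodes anillin, the scaffold of the contractile ring. Its signals were 696, 596 and 703 on null, 374, 459.8 and 413 on heterozygous and 500.4, 390.2 and 473 on wild-type arrays, and again null stood above both. Anln rose by 0.54 in null against wild type (SE 0.11, adjusted p = 0.00471) and by 0.66 in null against heterozygous (adjusted p = 0.00148). A dimmer probe set gave 0.44 and 0.46 (adjusted p over probe sets = 0.121 and 0.109). The calls of Ect2 and Anln in both comparisons held under every alternative and with each array left out.

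Kif23, the kinesin of the centralspindlin complex that recruits Ect2, read 478, 362 and 454 on null, 289, 299 and 311 on heterozygous and 405, 391 and 407 on wild-type arrays. Here the heterozygous arrays were lower than both other groups, and null and wild-type values overlapped. Kif23 rose by 0.50 in null against heterozygous (SE 0.10, adjusted p = 0.00507). Heterozygous against wild type missed the threshold with -0.41 (adjusted p = 0.0708), but passed it with the 6 arrays alone, with array weights and without null replicate 2 (adjusted p = 0.0407, 0.0484 and 0.0274), and null against wild type gave 0.09.

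Prc1 bundles the antiparallel microtubules of the central spindle. It read 454, 398 and 426 on null arrays, 279, 324 and 330.4 on heterozygous arrays and 385, 371 and 358 on wild-type arrays, the heterozygous arrays again being lowest. Its rise in null against heterozygous was 0.44 (SE 0.09, adjusted p = 0.00636). Dimmer probe sets moved less evenly: those of Kif23 gave 0.49 and -0.59 in null against heterozygous (adjusted p over probe sets = 0.0763 and 0.166), and that of Prc1 gave 0.05 (adjusted p = 0.866). With the mean of all probe sets neither gene was called (adjusted p = 0.524 for Kif23 and 0.102 for Prc1).

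Racgap1, the partner of Kif23 in centralspindlin, and the kinesins Kif20a and Kif20b were not called in any comparison. Over the 7 cytokinesis genes the median log2 difference was 0.44 in null against heterozygous, 0.09 in null against wild type and -0.21 in heterozygous against wild type. The null arrays lay above the heterozygous arrays in 5 of the 7, a separation found in 14.7% of all genes tested. Given how members were chosen, this too describes the 7 and does not test their role. Over all genes, the null against heterozygous median was -0.03.

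Of the 6 mitotic entry genes tested, 0 were called in null against wild type, and 2 had an unadjusted p under 0.05. Ccna2 encodes cyclin A2, which acts from DNA replication into early mitosis. It read 938, 788 and 900.4 on null, 667, 727 and 749.8 on heterozygous and 728, 786 and 770.1 on wild-type arrays, and rose by 0.29 in null against heterozygous (SE 0.09, adjusted p = 0.037). That call was lost without null replicate 1 or 3 (adjusted p = 0.136 and 0.118) and without heterozygous replicate 1 or 2 (adjusted p = 0.135 and 0.0847), and the dimmer Ccna2 probe set gave -0.20 (adjusted p over probe sets = 0.202). Without the filter, after quantile normalization, without the intensity trend and with the mean of both probe sets, the adjusted p was 0.0503, 0.062, 0.105 and 0.779.

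Cdk1, the kinase at the centre of mitotic entry, read 1198, 1171 and 1196 on null, 1046, 1047 and 963 on heterozygous and 1059, 1119 and 984 on wild-type arrays. Null arrays lay above all others by a small margin. The differences of 0.17 in null against wild type and 0.22 in null against heterozygous did not pass (adjusted p = 0.139 and 0.0646). Plk1, the Polo kinase, read 106, 108 and 114 on null, 137, 115 and 131 on heterozygous and 111, 125 and 107 on wild-type arrays. Null values lay just below all heterozygous values and overlapped wild type, and no difference was called. The 95% interval in null against wild type was -0.30 to 0.18. Ccnb2, the gene of cyclin B2, Aurka, the Aurora kinase of the spindle poles, and Cdca3, which promotes the destruction of the mitosis inhibitor Wee1, were not called, with 0.15, -0.18 and -0.09 in null against wild type.

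No gene of the spindle checkpoint was called, by limma, in any comparison. An unadjusted p under 0.05 was found for 0 of the 4 against wild type, in null or in heterozygous cells, and for 1 in null against heterozygous. Of the 39 members such a p was found for 14 in null against wild type, 8 in heterozygous against wild type and 16 in null against heterozygous. Of all 12347 genes it was found for 3578, 1594 and 3442 (29.0%, 12.9% and 27.9%), a lower share than of the members in each comparison. Members were chosen with earlier results of these data known, so this does not test them as a group. Of 107 tested mitosis genes that are not members, an unadjusted p under 0.05 was found for 32, 19 and 30. Bub1, a kinase that loads other checkpoint proteins at the kinetochore, read 556, 553 and 594 on null, 504, 570.1 and 620.4 on heterozygous and 583, 638 and 601 on wild-type arrays. The values overlapped, and the difference in null against wild type was -0.10 with a 95% interval of -0.29 to 0.10. Bub1b and Mad2l1, both parts of the complex that blocks Cdc20, gave 0.07 and 0.12 in the same comparison, and Ttk, the kinase that starts the signal, gave -0.04.

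Top2a, the topoisomerase that untangles sister chromatids, read 3916, 3892 and 3402 on null, 3404, 3815 and 3705 on heterozygous and 3973, 3755 and 3554 on wild-type arrays. These overlapped, with a difference of -0.01 in null against wild type and a 95% interval of -0.17 to 0.15. For 29 of the 39 members the whole 95% interval in null against wild type lay within a 1.5-fold change in either direction (74.4%, against 55.8% of all genes tested), as it did for 35 in heterozygous against wild type (89.7% against 67.9%) and 33 in null against heterozygous (84.6% against 56.7%). The median SE of a difference was 0.0996 for the members and 0.145 for all genes.

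Members were also placed by whether arrays of 2 genotypes overlapped. The null arrays lay above all wild-type arrays in 8 members (20.5%, against 14.1% of all genes) and below them in 10 (25.6% against 19.0%). They lay above all heterozygous arrays in 11 (28.2% against 14.7%) and below them in 7 (17.9% against 18.0%). In heterozygous against wild type the split was uneven: 1 member lay above (2.56% against 8.48%) and 8 below (20.5% against 9.78%), namely Cenpe, Cenpf, Kif23, Prc1, Kif20a, Tpx2, Aurka and Incenp. In 30 of 39 members the heterozygous against wild-type difference was under 0 (76.9%, against 52.0% of all genes), with a median of -0.11, although only Cenpf among them was called. The same count was 21 of 39 in null against wild type (53.8% against 56.1%) and 15 in null against heterozygous (38.5% against 54.4%). Of 107 tested mitosis genes that are not members, 70 were under 0 in heterozygous against wild type (65.4%). Among these 107, 24 lay below and 6 above (22.4% and 5.61%). The members' median in that comparison was -0.12 to -0.07 over all alternatives and with each array left out. The count under 0 without wild-type replicate 2 was not taken. Kif20a read 229, 269.7 and 262 on heterozygous and 363, 302 and 297 on wild-type arrays (-0.32, adjusted p = 0.22).

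**Figure D4:**
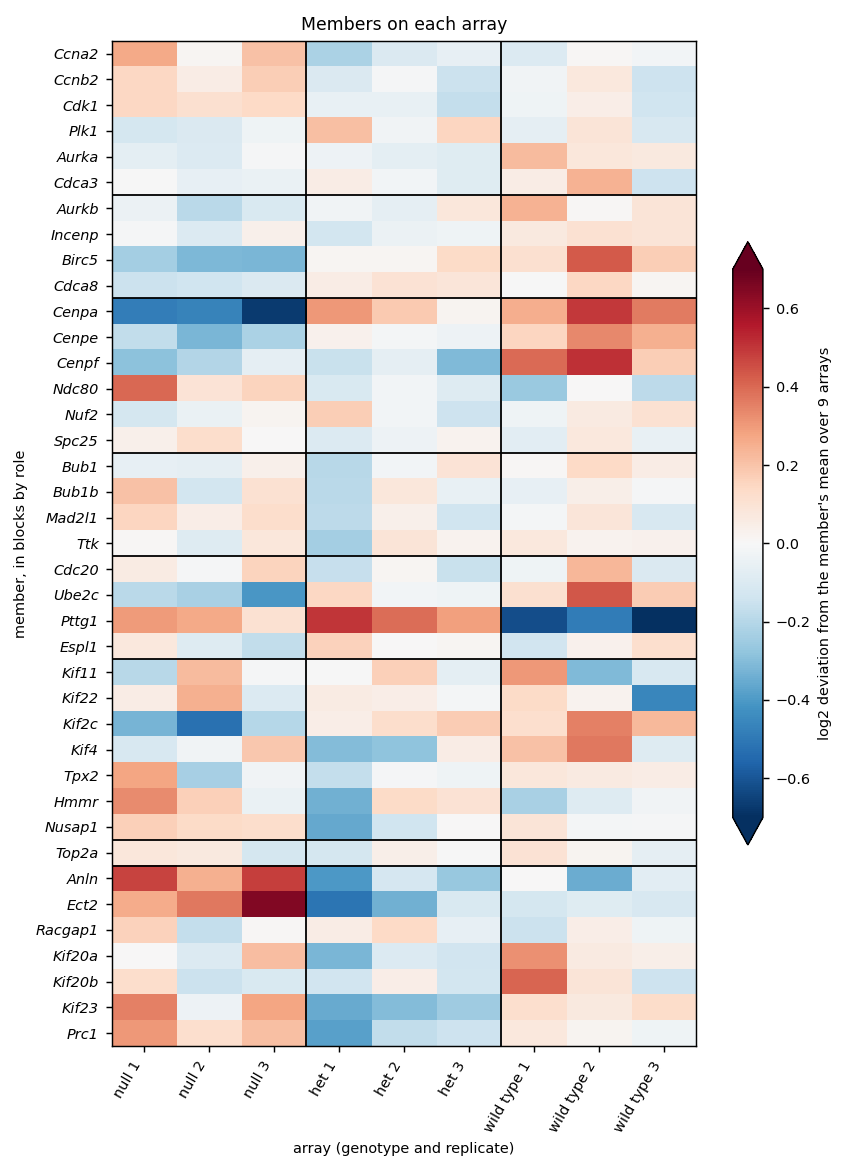
Each of the 39 members tested (rows, in blocks by role) on each of the 9 arrays (columns), coloured by its log2 deviation from the member's own mean over all arrays (red above, blue below, scale cut at 0.7). Null arrays are blue for Cenpa and red for Anln and Ect2, and wild-type arrays are blue for Pttg1; wild-type replicate 2 has 33 of 39 members above their own mean.

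Single arrays differed in how many members they held high. On wild-type replicate 2, 33 of 39 members lay above their own mean over the 9 arrays, against 23 and 17 on wild-type replicates 1 and 3, 15 to 23 on null arrays and 13 to 16 on heterozygous arrays. That array gave the highest signal of all 9 for Cenpa, Cenpe, Cenpf, Birc5, Ube2c and Kif2c, the 6 members that fell in null against wild type, and all 6 remained called without it. Median deviations of the members were small throughout, from -0.10 on heterozygous replicate 1 to 0.07 on wild-type replicate 1.

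Other genes of the same pathway were 107 tested mitosis genes that are not members. In null against wild type 8 of them rose and 9 fell (15.9% called, against 15.7% of all genes). In heterozygous against wild type 1 rose and 1 fell (1.87% against 1.39%). In null against heterozygous 6 rose and 6 fell (11.2% against 14.3%). Their median differences were -0.06, -0.06 and 0.04. In null against wild type, those with the smallest p were Lin54, a CHR-binding subunit of the DREAM and MMB complexes, with 0.79 (adjusted p = 0.000284), the inner kinetochore genes Cenpw and Cenpm with 0.58 and -0.76 (adjusted p = 0.0011 and 0.00434), the abscission protein Cep55 with 0.41 (adjusted p = 0.00246), Bora, a partner of Aurka in activating Plk1, with -0.52 (adjusted p = 0.00422), and the cohesin subunit Rad21 with 0.39 (adjusted p = 0.00481).

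Lin54 was one of the 2 companion genes called in heterozygous against wild type. It read 702, 612 and 701 on null, 489.7, 582 and 532 on heterozygous and 327, 398 and 429.7 on wild-type arrays, so the 3 genotypes were fully separated, with null highest. Its heterozygous difference was 0.47 (adjusted p = 0.0487), and the other gene called there was Depdc1a with -0.45 (adjusted p = 0.0342). In null against heterozygous, the mitotic kinases Pbk and Nek2 rose by 0.49 and 0.71, and the anaphase-promoting complex subunits Cdc26 and Anapc11, the Ndc80 complex subunit Spc24 and Cenpm fell by 0.51, 0.66, 0.40 and 0.64. Their adjusted p ranged between 0.0013 for Pbk and 0.0131 for Cenpm. Leaving out any heterozygous array, or replicate 1 or 2 of the wild type, left 0 of the 107 called in heterozygous against wild type, and leaving out any null array left 1. The null against wild-type count was 11 without null replicate 3, and the null against heterozygous count was 5 without null replicate 3 or heterozygous replicate 1 and 6 without heterozygous replicate 2.

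DNA replication genes, which are expressed earlier in the cell cycle, were described for comparison. Of 38 tested, 2 were higher and 5 lower in null against wild type (18.4%, against 15.7% of all genes). In heterozygous against wild type 1 was higher and 0 lower (2.63% against 1.39%). In null against heterozygous 0 were higher and 4 lower (10.5% against 14.3%). Cdc7 and Dbf4, the kinase that fires replication origins and its activating subunit, fell by 0.45 and 0.36 in null against wild type (adjusted p = 0.00559 and 0.0157). Rfc5, of the clamp loader, and Gins3, of the replicative helicase, fell by 0.31 and 0.38, and Rrm2, of ribonucleotide reductase, and Pole2, of DNA polymerase epsilon, rose by 0.27 and 0.29. The adjusted p of these 4 ranged between 0.0171 for Rfc5 and 0.0272 for Gins3. In null against heterozygous, Tk1, the thymidine kinase of replicating cells, Pold2, of DNA polymerase delta, Gins3 and Rfc5 fell by 0.47, 0.46, 0.43 and 0.31, with adjusted p between 0.00624 for Tk1 and 0.0178 for Rfc5. Pold2 was the gene that was higher in heterozygous against wild type (0.48, adjusted p = 0.0429). Single arrays lowered these counts. In null against wild type 3 of 38 were called without replicate 1 of the null group or replicate 2 of the wild type, and 4 without replicate 2 or 3 of the null group or replicate 1 of the wild type. In null against heterozygous 2 were called without null replicate 3 or heterozygous replicate 2. The call of Pold2 against wild type was lost without any 1 heterozygous array, replicate 1 or 3 of the wild type, or replicate 1 or 3 of the null group, which left 0 called.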

How the data were processed

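The authors deposited 1 signal intensity for each array and probe set, made with MAS5, per the submitters' processing notes. Its version and settings are not given in the sources used here. The deposited intensity values are linear, and their 2% trimmed mean was 100 on all 9 arrays, which hides any change that most transcripts share. Detection calls were not used, array number limits the precision, and levels of different probe sets were not compared with each other. The array annotation gave 1 symbol to 34945 of 45101 probe sets. Of these, 34741 matched RefSeq GRCm38.p6 genes by Entrez identifier.

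The brightest probe set by mean log2(signal + 12) stood for each of 18193 genes, of which 12347 with a mean at or above the 40th percentile of all probe sets were tested. Differences on this scale, which understates changes of dim genes, were tested in R 4.3.3 with limma 3.58.1 (lmFit, eBayes with an intensity trend, 3 groups of 3 arrays in 1 fit, 6 residual degrees of freedom), two-sided, with Benjamini-Hochberg adjustment over all genes tested and calls at 0.05. With 3 arrays a group, the smallest p an exact permutation test allows is 0.1. Groups follow the genotype labels.

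Members and lists were chosen with earlier results of these data known. Every member is named. Values are given for members called in any comparison and for the best known gene of each role, and, of the other lists, for at most 6 called genes per comparison with the smallest p. Alternatives changed the pseudocount, filter, normalization, variance prior, arrays fitted, array weights, handling of several probe sets and replicate block, and left out each array in turn.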

Additional observations from a re-analysis of the deposited data

How the results depend on the processing

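Of 21 calls of single members, 10 held under all 12 alternatives and with each of 9 arrays left out (Anln and Ect2 in both comparisons, Pttg1 in both comparisons with wild type, and Cenpa, Birc5, Cenpe and Ube2c in null against wild type), and 0 turned direction. Members called in null against wild type numbered 10, with 9 to 10 under every alternative. In null against heterozygous, 9 were called, 6 to 10 with an array left out, and 3 with the mean of all probe sets. In heterozygous against wild type, 2 were called, 1 to 2 with an array left out, and 1 without the dim-gene filter, without the intensity trend or with the mean of all probe sets. The highest counts under other settings were 3 in heterozygous against wild type and 11 in null against heterozygous. Companion mitosis genes called in null against wild type numbered 17 (11 to 18 with an array left out), and 11 without the trend or with the mean of probe sets. In heterozygous against wild type they numbered 2 (0 to 2), 0 without the trend, and 1 with log2(signal + 1), no filter, only the 6 arrays compared, the mean of probe sets or a fit over all probe sets. In null against heterozygous they numbered 12 (5 to 11), and 7 without the trend. DNA replication genes called in null against wild type numbered 7 (3 to 7), 2 without the trend and 3 with the mean of probe sets. In heterozygous against wild type they numbered 1 (0 to 1), and 0 with no filter, no trend, only the 6 arrays compared, the mean of probe sets or a fit over all probe sets. In null against heterozygous they numbered 4 (2 to 4). The mean of probe sets also takes in dimmer probe sets, and with it 11474 genes were tested in place of 12347. Why calls changed under any of the settings was not tested. The labels do not say whether equal replicate numbers mark paired samples. Deviations of same-numbered arrays correlated at -0.03 to 0.14, and those of differently numbered arrays at -0.15 to 0.09. With the replicate number as a block, 10, 2 and 10 members were called in null against wild type, heterozygous against wild type and null against heterozygous. Over all genes, the block gave 1016 higher and 1095 lower in null against wild type, against 938 and 999 without it. Background was not measured, so which dim signals it limits is unknown.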
